A study of Mus musculus with 24 samples.

Results

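The 10 genes described here encode acyl-CoA thioesterases (Acot1, Acot2, Acot3, Acot4, Acot5, Acot8 and Acot12) and amino acid N-acyltransferases (Acnat1, Acnat2 and Baat) of the mouse kidney. They were taken by symbol from a list, and not by a threshold on their values, but the list was chosen with earlier results of these data known. All 10 were found among the 55335 genes with a line in the count files. Of these, 9 reached at least 1 CPM (the unit used throughout, reads of a gene relative to the normalised library total) in at least 1 kidney and were tested, and Acot5 did not.

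Acyl-CoA thioesterases cleave an acyl-CoA into the free acid and coenzyme A, and so set how much of the limited CoA pool of a compartment is bound to acyl groups. The N-acyltransferases, which share their fold with Acot1 to Acot5, pass the acyl group to the amino group of glycine or taurine instead, which gives bile acid conjugates (Baat) or N-acyl taurines (Acnat1). These enzymes sit in different compartments: Acot3, Acot4, Acot5, Acot8, Acnat1 and Acnat2 in peroxisomes, Baat in peroxisomes and partly in the cytosol, Acot2 in mitochondria, and Acot1 and Acot12 in the cytosol. Compartments are given here from textbook knowledge, with Baat counted as peroxisomal, and no protein was measured.

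RNA of whole kidneys was compared between mice with and without an induced deletion of Pex5 in the renal tubule, with 6 kidneys of different mice in each of 4 groups. Pex5 encodes the receptor that carries proteins with a peroxisome targeting signal 1 (PTS1), a short signal at the carboxyl end, into peroxisomes. Ctrlm (male) and Ctrlf (female) mice were Pex5lox/lox littermates, and cKOm (male) and cKOf (female) mice were Pex5lox/lox/Pax8-rtTA/LC1, in which doxycycline (DOX) turns on Cre in cells where the Pax8 promoter is active. All 4 groups were of C57BL/6J background, had the floxed Pex5 alleles and received DOX for 2 weeks from 8 weeks of age. Kidneys were taken 4 weeks after DOX ended, at 14 weeks of age. The control mice lack the Pax8-rtTA and LC1 transgenes, so an effect of these or of Cre itself cannot be told apart from that of the deletion. In whole kidney RNA, fewer cells of a type and less RNA per cell cannot be told apart either.

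Because the deleted gene encodes the PTS1 receptor, the ends of the coding sequences are shown for 8 members. Each line gives the last 30 bases of the longest complete coding sequence in GENCODE M21, 5′ to 3′ and ending with the stop codon, and capitals mark the 3 codons before it.
Acot3: aaaaagaagacaatcccaGCAAAACTGtga
Acot4: acccacagcagagcctccTGTAGACTGtag
Acot8: aagcctcaggtgtcagagAGTAAGCTAtag
Acnat1: cacctccttcaatccggaAGCAAACTCtaa
Baat: ctccttccagatttgagcAGTCAGCTCtga
Acot2: ttccacaaacagttgggtAGCAAGAGTtag
Acot1: gagtgtttgcatgtgtctCCTAAAATAtaa
Acot12: actcctgatggacttaaaAGTGTGTTAtaa
The 3 codons were compared with the common PTS1 pattern, that is a codon for serine, alanine or cysteine, then one for lysine, arginine or histidine, then one for leucine or methionine. The pattern was found in Acot3, Acot4, Acot5, Acot8, Acnat1 and Acnat2, and not in Acot1, Acot2, Acot12 or Baat. Variants of the pattern were not searched, so its absence does not show that a protein lacks a PTS1. The last 30 bases of Acnat2 were identical to those of Acnat1.

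The counts on genes summed to 19376152 to 28470831 per kidney. Pex5 itself was at 41.8 to 47.3 CPM in cKOm against 49.1 to 62.8 CPM in Ctrlm (log2 fold change -0.31, edgeR adjusted p = 0.0219), and at 38.0 to 48.5 CPM in cKOf against 43.0 to 61.7 CPM in Ctrlf (-0.21, adjusted p = 0.177). Without Ctrlm replicate 2 or cKOm replicate 4 the male difference missed the threshold (edgeR adjusted p = 0.0656 and 0.0504), and so it did with the hepatocyte level as a covariate (-0.30, adjusted p = 0.122) and without the kidneys over 100 CPM of Alb described below (-0.26, adjusted p = 0.382). These counts cover every exon and cell type of the kidney, also those outside the deletion. The paper reports PEX5 protein as virtually absent from cKOm kidneys, and as lower but detectable in cKOf. By its electron microscopy, peroxisomes were virtually absent from proximal tubules of both sexes. The paper measured significantly less Pex5 mRNA in cKO kidneys of both sexes, with some full-length mRNA left in cKOf. It proposes that excision was incomplete there, and does not exclude that functions of peroxisomes in the kidney depend on sex. Liver transcripts were present in some male kidneys, with Alb, the albumin gene, over 100 CPM in Ctrlm replicates 1 to 4 and cKOm replicate 4. The hepatocyte level, as a covariate and in correlations, was the mean log2 CPM of 12 hepatocyte markers. The sum of 12 hepatocyte markers ranged from 113 to 971 CPM over Ctrlm kidneys, from 93.5 to 524 over cKOm, from 87.2 to 128 over Ctrlf and from 63.3 to 147 over cKOf, and none was at 0 in every kidney. That of 8 proximal tubule markers was 9433 to 10685 CPM for Ctrlm, 7505 to 8222 for cKOm, 8737 to 9756 for Ctrlf and 8023 to 9282 for cKOf. The part of either list in the results on the members was not tested beyond the values given beside them.

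In males, 5 members rose in the cKO kidney (Acot1, Acot2, Acot3, Acot4 and Acnat1) and 1 fell (Acot12), with edgeR's adjusted p under 0.05. These were 6 of the 9 members tested, beside 9.05% of all 16092 genes tested (4.14% higher and 4.90% lower). Because earlier results were known when the list was chosen, such shares are descriptions in both sexes. In females, Acot1, Acot2, Acot3 and Acot4 rose and Baat fell, which made 5 of 9 members beside 0.851% of all genes (0.391% higher and 0.460% lower). The median log2 fold change of the tested members was 0.68 in males and 0.21 in females, against 0.01 and 0.00 over all genes. Male and female p values were adjusted together. When each sex was adjusted alone, Acot2 and Acot4 missed the threshold in females (adjusted p = 0.0652 and 0.0883), which left 3 members called there, and the male calls stood at 6.

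**Figure D1:**
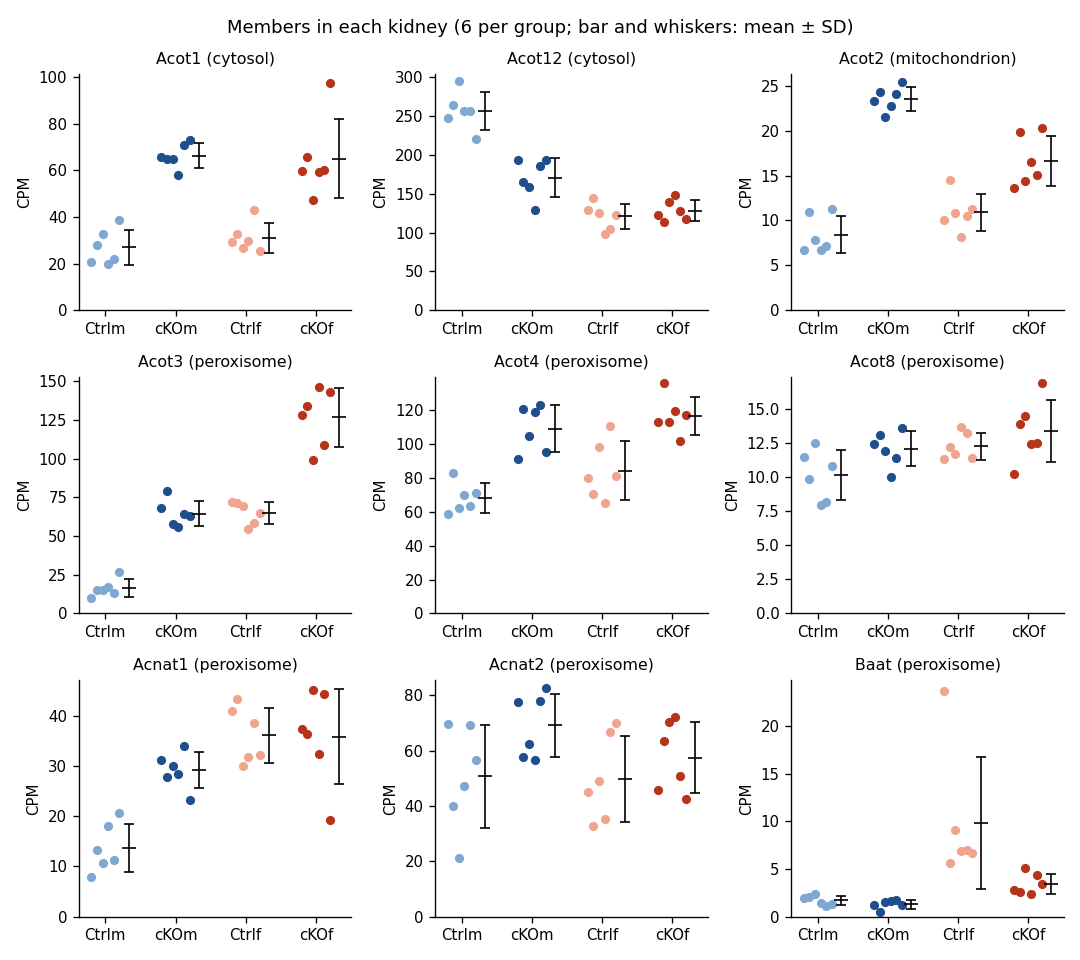
Level of the 9 tested members in each kidney, in CPM on a linear axis from 0. Each point is 1 kidney, 6 per group, and the black bar with whiskers is the mean ± SD. Acot3 lies at 10.1 to 27.0 CPM in Ctrlm and at 55.5 to 78.9 CPM in cKOm, and 1 Ctrlf kidney lies apart at 23.7 CPM of Baat.

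Acot3, a peroxisomal thioesterase of long-chain acyl-CoAs, changed most among the members in males. Its level was 10.1 CPM in the lowest, 15.01 in the median and 27.0 in the highest Ctrlm kidney, and 55.5, 63.3 and 78.9 CPM in cKOm. The lowest cKOm kidney was above the highest Ctrlm kidney. The rise was 3.99-fold (log2 fold change 2.00 ± 0.16, SE, edgeR adjusted p = 3.3e-09). An exact permutation test of the mean CPM gave p = 0.00216, the smallest two-sided value that 6 kidneys against 6 allow. In females the level went from 54.6, 66.8 and 71.6 CPM in Ctrlf to 99.1, 131 and 146 CPM in cKOf, again with no overlap. This rise was 1.95-fold (0.96 ± 0.15, edgeR adjusted p = 9.3e-05). The genotype effect was larger in males by 1.03 on the log2 scale (interaction, edgeR adjusted p = 0.00563). The paper proposes that excision was incomplete in cKOf. For every member, a difference of genotype effects between the sexes therefore cannot be told apart from a difference in the degree of deletion.

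Acot4, which prefers succinyl-CoA and other dicarboxylyl-CoAs, lies next to Acot3 on chromosome 12. It was at 58.9, 66.6 and 83.1 CPM (lowest, median, highest) in Ctrlm and at 91.5, 112 and 123 CPM in cKOm. All cKOm kidneys were above all Ctrlm kidneys, and the rise was 1.60-fold (0.68 ± 0.11, edgeR adjusted p = 2.4e-04). In females Acot4 was at 65.1, 80.6 and 111 CPM in Ctrlf and at 102, 115 and 136 CPM in cKOf. The female groups overlapped, because Ctrlf replicate 5 stood at 111 CPM, and the rise was 1.39-fold (0.47 ± 0.11, edgeR adjusted p = 0.0108). The effects of the sexes differed by 0.21 ± 0.16 on the log2 scale (adjusted p = 0.618).

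Acot8, the peroxisomal thioesterase with the broadest range of substrates, did not pass the test in either sex. It was at 7.95 to 12.5 CPM in Ctrlm and 10.02 to 13.6 CPM in cKOm, with a log2 fold change of 0.25 ± 0.12 (edgeR adjusted p = 0.307). In females it was at 11.3 to 13.7 CPM in Ctrlf and 10.2 to 16.9 CPM in cKOf (0.13 ± 0.12, adjusted p = 0.678). The groups overlapped in both sexes. Acot5, a peroxisomal thioesterase of medium-chain acyl-CoAs, had at most 7 counts in any kidney and 0 counts in 4 of 6 kidneys of each male group and 3 of 6 of each female group. A count of 0 allows up to 3 counts in a library, so a difference of Acot5 was not detectable at this depth, and this floor covers counting error only.

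The N-acyltransferases lie side by side on chromosome 4. Of them, Acnat1 alone passed the test in males and Baat alone in females. Acnat1, which makes N-acyl taurines from fatty acyl-CoAs, was at 7.88, 12.3 and 20.6 CPM (lowest, median, highest) in Ctrlm and at 23.3, 29.3 and 34.0 CPM in cKOm. The male groups did not overlap, and the rise was 2.14-fold (log2 fold change 1.10 ± 0.19, edgeR adjusted p = 3.8e-04). In females Acnat1 was at 30.1, 35.3 and 43.3 CPM in Ctrlf and at 19.2, 36.9 and 45.1 CPM in cKOf (-0.01 ± 0.18, edgeR adjusted p = 0.988). The lowest value of the female groups belonged to cKOf replicate 6. The genotype effect differed between the sexes by 1.11 ± 0.26 on the log2 scale (edgeR adjusted p = 0.0191), and missed the threshold with the hepatocyte level as a covariate (0.98, adjusted p = 0.0655). Across the 24 kidneys, the deviation of Acnat1 from its group mean had r = -0.34 with that of the hepatocyte level, as a description. For the other members tested this r was -0.44 (Acot3), -0.42 (Acnat2), -0.17 (Acot4), -0.16 (Acot1), -0.13 (Acot2), -0.09 (Acot12), 0.04 (Acot8) and 0.41 (Baat).

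Acnat2 is the close copy of Acnat1, with 96.2% identical bases over the aligned coding sequence. It did not pass the test, at 21.2 to 69.8 CPM in Ctrlm and 56.7 to 82.5 CPM in cKOm (log2 fold change 0.45 ± 0.22, edgeR adjusted p = 0.31), and at 32.8 to 69.9 CPM in Ctrlf and 42.5 to 72.1 CPM in cKOf (0.21 ± 0.22, adjusted p = 0.729). The spread within Ctrlm was wide, with replicate 3 at 21.2 CPM and replicate 1 at 69.8 CPM. Reads that fit both copies were left out of the counts if they aligned to more than 1 place. Of all stretches of 100 bases in the merged exons, 89.8% in Acnat1 and 88.0% in Acnat2 were found in no other gene.

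Baat, which conjugates bile acids with glycine or taurine, had the lowest level per length of the tested members in male kidneys. It was at 1.15, 1.68 and 2.42 CPM in Ctrlm and at 0.431, 1.36 and 1.79 CPM in cKOm, from 9 to 62 counts per kidney, and the groups overlapped (log2 fold change -0.42 ± 0.34, edgeR adjusted p = 0.631). Female kidneys held more, at 5.61, 6.94 and 23.7 CPM in Ctrlf and 2.36, 3.11 and 5.09 CPM in cKOf. Every cKOf kidney was below every Ctrlf kidney, and Baat fell by 1.51 ± 0.31 on the log2 scale (edgeR adjusted p = 0.00294). Ctrlf replicate 1 stood at 23.7 CPM and the next kidney at 9.14 CPM. Without it the log2 fold change was -1.03 (edgeR adjusted p = 0.0122). The interaction with sex did not pass the test (1.09 ± 0.46, adjusted p = 0.291). The same Ctrlf kidney had the highest values of the GTPase gene Tgtp1, at 331 CPM against at most 7.32 CPM in the other Ctrlf kidneys, and of BC023105, at 168 against at most 2.04 CPM. Its part in the Baat result is given by the value without it.

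Acot2, the mitochondrial thioesterase of long-chain acyl-CoAs, rose in both sexes. It was at 6.67, 7.5 and 11.3 CPM (lowest, median, highest) in Ctrlm and at 21.5, 23.7 and 25.4 CPM in cKOm. No cKOm kidney fell into the Ctrlm range, and the rise was 2.79-fold (log2 fold change 1.48 ± 0.14, edgeR adjusted p = 7.6e-08). In females it went from 8.19, 10.7 and 14.5 CPM in Ctrlf to 13.6, 15.8 and 20.3 CPM in cKOf, where the ranges overlapped. This was 1.53-fold (0.61 ± 0.14, edgeR adjusted p = 0.00745). The genotype effect was larger in males by 0.87 ± 0.20 (edgeR adjusted p = 0.014).

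Acot1, the cytosolic counterpart of Acot2 with 95.5% identical bases over the aligned coding sequence, rose in both sexes. Its level was 19.9, 24.9 and 38.7 CPM in Ctrlm and 57.9, 65.3 and 73.2 CPM in cKOm, which did not overlap. The rise was 2.46-fold (log2 fold change 1.30 ± 0.16, edgeR adjusted p = 4.7e-06). Ctrlf kidneys were at 25.6, 29.4 and 43.2 CPM and cKOf kidneys at 47.4, 59.96 and 97.7 CPM, also without overlap, for a rise of 2.08-fold (1.06 ± 0.16, edgeR adjusted p = 7.2e-05). The highest cKOf value came from replicate 6. The difference between the sexes was 0.24 ± 0.23 on the log2 scale (adjusted p = 0.704). Stretches of 100 bases found in no other gene made up 88.5% of Acot1 and 82.9% of Acot2, the lowest share among the members.

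Acot12, a cytosolic thioesterase that acts on acetyl-CoA, was the only member that passed the test with a fall in males, and it did not pass the test in females. It was at 220.1, 256 and 295 CPM in Ctrlm and at 129, 175 and 193 CPM in cKOm. The highest cKOm kidney was below the lowest Ctrlm kidney, and the level fell by 0.59 ± 0.10 on the log2 scale (edgeR adjusted p = 4.0e-04). Female kidneys were at 98.1, 124 and 144 CPM in Ctrlf and 113, 125 and 149 CPM in cKOf (0.09 ± 0.10, adjusted p = 0.759). The interaction was -0.68 ± 0.14 (edgeR adjusted p = 0.00772). Acot12 is also a gene of the liver, and its deviations had r = -0.09 with those of the hepatocyte level over 24 kidneys. In kidneys with at most 100 CPM of Alb, Acot12 was at 220.1 and 256 CPM in 2 Ctrlm and at 159 to 193 CPM in 5 cKOm. Summed proximal tubule markers were lower in cKOm than in Ctrlm as well, and the part of this in the fall of Acot12 was not tested. The list was mixed, with 4 of 8 markers called lower, among them Slc7a13 (mean 817 CPM in Ctrlm and 171 in cKOm). Above 0 were 2, Slc5a12 (0.63, edgeR adjusted p = 0.0512) and Slc5a2 (0.10, adjusted p = 0.723).

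**Figure D2:**
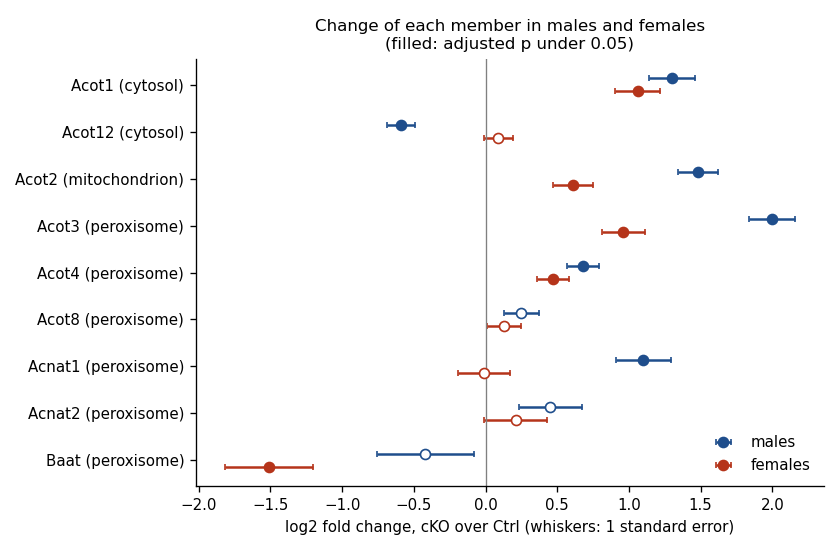
Log2 fold change of each tested member, cKO over Ctrl, in males (blue) and females (red), with whiskers of 1 standard error. Filled points passed the edgeR test (adjusted p under 0.05). In males Acot3 is at 2.00 and Acot12 at -0.59, while in females Baat is at -1.51.

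When the 4 Ctrlm kidneys and the 1 cKOm kidney with over 100 CPM of Alb were left out together, which keeps 2 Ctrlm kidneys, the male changes had the same signs. Of these 2, replicate 6 had the highest Acot1, Acot2, Acot3 and Acnat1 and the lowest Acot12 of all Ctrlm kidneys. It was thus the control nearest to cKOm for these members, and its part in this setting was not tested. Acot1, Acot2 and Acot3 passed the test in males, and Acot4 (0.64, adjusted p = 0.061), Acot12 (-0.45, adjusted p = 0.0981) and Acnat1 (0.84, adjusted p = 0.108) did not. In the same setting, 0 members passed edgeR's test of genotype by sex and 5 had an unadjusted p under 0.05. This choice was made after the data had been seen. With all kidneys, 4 members passed the test of genotype by sex (Acot2, Acot3, Acot12 and Acnat1), beside 2.31% of all genes (0.820% with the larger value in males and 1.49% with the smaller), and limma-voom and DESeq2 each gave 4 as well.

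To compare members with each other, CPM were divided by the length of the merged exons in kilobases. On this scale the 10 members summed to 145 ± 3.89 CPM per kb (SD, n = 6) for Ctrlm and 175 ± 15.6 for cKOm, and to 138 ± 13.2 for Ctrlf and 176 ± 10.6 for cKOf. The peroxisomal members made up 38.8% ± 6.36 of this sum in Ctrlm and 54.6% ± 1.55 in cKOm. In females their share was 64.0% in both groups, with SDs of 3.5 and 2.55. The mitochondrial member Acot2 held 2.64% ± 0.641 in Ctrlm and 6.17% ± 0.452 in cKOm, and 3.6% ± 0.609 in Ctrlf and 4.31% ± 0.688 in cKOf. The cytosolic members went from 58.6% ± 6.39 in Ctrlm to 39.2% ± 1.87 in cKOm, and stood at 32.4% ± 2.97 in Ctrlf and 31.6% ± 2.31 in cKOf. These shares are descriptions and carry no test.

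Within the cytosolic share the members moved in opposite directions in males. Acot12 had the highest level per kb of the members in every group on this scale, and its share of the sum was 53.9% for Ctrlm and 29.6% for cKOm, and 26.7% for Ctrlf and 22.2% for cKOf. Acot1 held 4.74% in Ctrlm and 9.69% in cKOm. Among the peroxisomal members, Acnat2 was second per kb in 3 of the groups, with 19.9% in Ctrlm, 22.6% in cKOm and 20.5% in Ctrlf. In cKOf, Acot3 took that place with 20.9%, and Acnat2 had 18.6%, a gap smaller than the SD of either (2.87 and 3.29). In Ctrlm, Acot3 had held 3.24%. With the length of the bases found in 1 gene only in place of the merged exons, Acot3 (43.9) came before Acot12 (42.1) in cKOf, and Acot12 was first in the other groups. Acot5 was last in every group and Baat next to last in 3 of them.

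**Figure D3:**
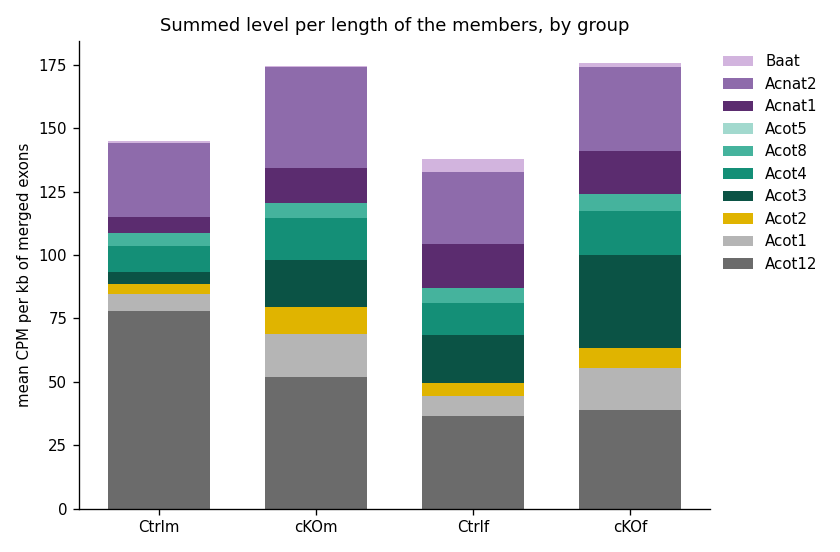
Mean level per length of the 10 members in each group, stacked, in CPM per kb of merged exons. Grey stands for cytosolic, yellow for mitochondrial, green for peroxisomal thioesterases and violet for N-acyltransferases. Acot12 is the largest block in every group, and the Acot3 block is thickest in cKOf.

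Ratios of pairs of members within the same kidney were compared by exact permutation tests on the log2 scale, adjusted over 12 tests. Acot3 to Acot1, a peroxisomal against a cytosolic thioesterase of long-chain acyl-CoAs, had a ratio of counts of 0.453, 0.572 and 0.845 (lowest, median, highest) in Ctrlm and of 0.857, 0.93 and 1.21 in cKOm. The male groups did not overlap, and the mean log2 ratio rose by 0.71 (exact permutation, adjusted p = 0.00866). In females the ratio ranged from 1.35 to 2.6 in Ctrlf and from 1.46 to 2.46 in cKOf, a difference of -0.09 (adjusted p = 0.621, exact permutation). Acot4 to Acot1 was lower in cKO kidneys of both sexes, with log2 differences of -0.66 in males and -0.56 in females (exact permutation, adjusted p = 0.0223 and 0.0216). Its groups overlapped in both sexes.

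Acot8 to Acot2, a peroxisomal against the mitochondrial thioesterase, was at 0.906 to 1.72 in Ctrlm and 0.439 to 0.554 in cKOm, without overlap. The mean log2 ratio differed by -1.24 in males and -0.49 in females (exact permutation, adjusted p = 0.00866 and 0.0104). Acot1 to Acot2, the cytosolic and the mitochondrial copy, differed by -0.17 in males and 0.44 in females, and neither passed the threshold (exact permutation, adjusted p = 0.145 and 0.0584). The ratio of Acnat1 to its copy Acnat2 did not pass either (0.62 and -0.29, exact permutation, adjusted p = 0.145 and 0.321). Acnat1 to Baat was higher in cKO kidneys, by 1.61 in males and 1.30 in females (exact permutation, adjusted p = 0.00866 and 0.0104). In females Acnat1 itself was at -0.01 and Baat at -1.51 on the log2 scale. In males Acnat1 rose (1.10) and Baat was not called (-0.42). The highest ratio in cKOm, 64.9, rests on 9 counts of Baat in replicate 2. Ctrlf includes replicate 1, the kidney with the highest Baat.

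**Figure D4:**
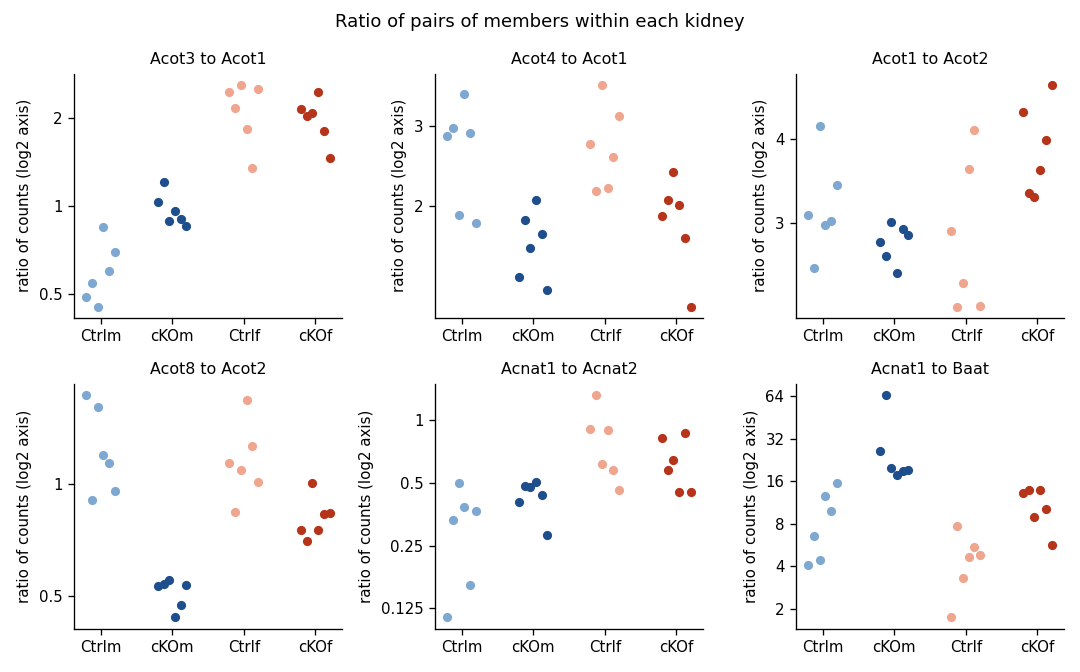
Ratio of the counts of pairs of members within each kidney, on a log2 axis. Each point is 1 kidney, 6 per group. Acot8 to Acot2 is at 0.439 to 0.554 in cKOm and at 0.906 or higher in Ctrlm, and Acot3 to Acot1 is below 1 in every Ctrlm kidney and above 1 in every Ctrlf kidney.

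Several members differed between the sexes in control kidneys, with 4 of 9 called beside 15.7% of all genes (8.17% higher in males and 7.48% lower). Acot3 (-2.01 on the log2 scale, males minus females, edgeR adjusted p = 2.6e-10), Acnat1 (-1.41, adjusted p = 4.7e-06) and Baat (-2.50, adjusted p = 3.1e-06) were lower in Ctrlm, and Acot12 was higher (1.09, adjusted p = 1.0e-08). Of the 12 hepatocyte markers, 11 were called higher in Ctrlm than in Ctrlf. Acot3, Acnat1, Baat and Acot12 each passed the test in the same direction with the hepatocyte level as a covariate and without the kidneys over 100 CPM of Alb. Acot2 (-0.36, adjusted p = 0.0978) and Acot4 (-0.31, adjusted p = 0.0781) did not pass. Acot2 passed without Ctrlm replicate 2 or 6 (edgeR adjusted p = 0.0384 and 0.0409), and Acot4 without Ctrlm replicate 2 or Ctrlf replicate 2 or 4 (0.0323, 0.0487 and 0.0368). Leaving out Ctrlf replicate 1 gave -2.03 for Baat.

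In cKO kidneys 4 of 9 members differed between the sexes, beside 9.72% of all genes (4.80% higher in males and 4.92% lower). Acot3 was lower in cKOm than in cKOf by a log2 difference of -0.97 (edgeR adjusted p = 3.1e-05) and Baat by -1.42 (adjusted p = 0.00452). Acot12 remained higher in males (0.41, adjusted p = 0.00654), and Acot2 was higher in males here (0.50, adjusted p = 0.0147). Acnat1 did not pass in cKO kidneys (-0.30, adjusted p = 0.342). For Acot3, cKOm kidneys at 55.5 to 78.9 CPM covered the range of Ctrlf kidneys, at 54.6 to 71.6 CPM, nearly in full. These contrasts share kidneys with the genotype contrasts.

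The thioesterases Acot2, Acot1, Acot4, Acot3 and Acot5 follow one another on the + strand of chromosome 12 between bases 83987861 and 84076020 (GRCm38), with Acot6, which is no member, next in line. Acnat2, Acnat1 and Baat lie on the - strand of chromosome 4 between 49379840 and 49506557. Acot8 is on chromosome 2 (164792765 to 164804882, - strand) and Acot12 on chromosome 13 (91741512 to 91786148, + strand). All 4 tested members of the chromosome 12 cluster rose in both sexes. Acot6, whose coding end holds the PTS1 pattern as well, was at 12.2 to 16.4 CPM in Ctrlm and 13.7 to 22.9 CPM in cKOm and did not pass (0.35 ± 0.14, edgeR adjusted p = 0.186), nor in females (0.40 ± 0.14, adjusted p = 0.113). Some members overlap other genes. The antisense gene 4732463B04Rik, at 2.18 to 8.46 CPM over the 24 kidneys, overlaps Acot3 and Acot4, and Snx21, at 9.29 to 22.5 CPM, overlaps Acot8 on the other strand. The library kit keeps the strand, but the strand setting of the counting is not given in the sources used here. Counts of these members could therefore hold reads of their partner or lack reads that overlap both genes. Gm49366, on the same strand as Acot3 and Acot4, had a level of 0 in all kidneys. The counting set ambiguous reads aside, so this level cannot show whether Gm49366 is transcribed, or how many reads Acot3 and Acot4 lost.

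**Figure D5:**
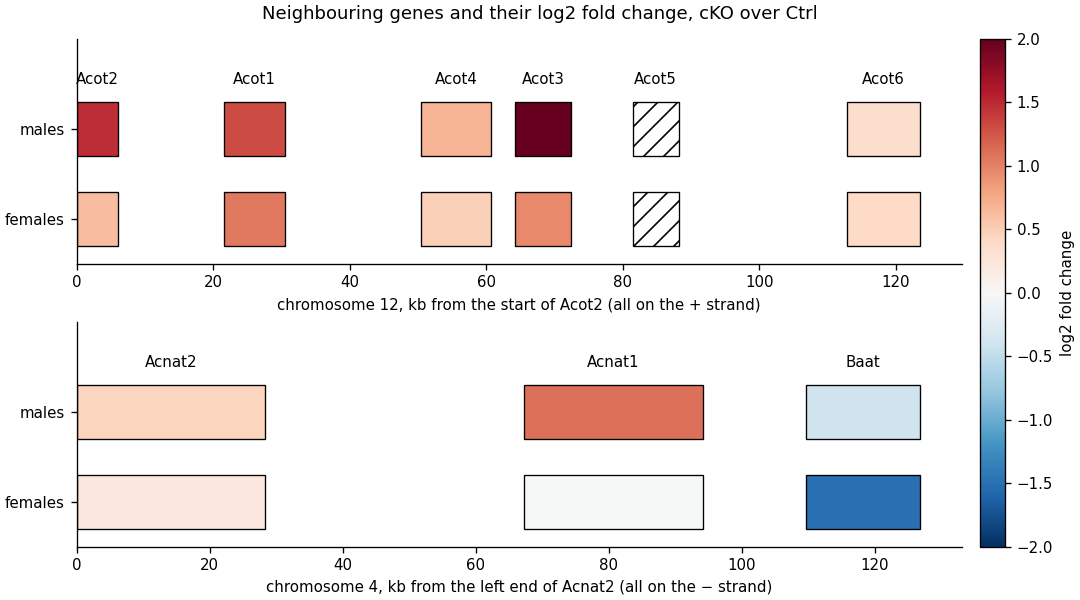
Position of the neighbouring genes on chromosome 12 and chromosome 4, in kb from the left end of the first gene, coloured by the log2 fold change of cKO over Ctrl. The upper row of each panel is males and the lower row females, and hatched Acot5 was not tested. All tested genes on chromosome 12 are red, up to 2.00 for Acot3 in males, while Baat on chromosome 4 is blue, at -1.51 in females.

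The promoters of the 4 cluster members that rose in both sexes are shown because these neighbours changed in the same direction, by different amounts. Each line gives 250 bases before to 50 bases after the transcription start (RefSeq, GRCm38.p6), 5′ to 3′ on the strand of the gene, and capitals mark AGGTCA or its reverse complement TGACCT.
Acot1 (chr12:84009252-84009551, + strand): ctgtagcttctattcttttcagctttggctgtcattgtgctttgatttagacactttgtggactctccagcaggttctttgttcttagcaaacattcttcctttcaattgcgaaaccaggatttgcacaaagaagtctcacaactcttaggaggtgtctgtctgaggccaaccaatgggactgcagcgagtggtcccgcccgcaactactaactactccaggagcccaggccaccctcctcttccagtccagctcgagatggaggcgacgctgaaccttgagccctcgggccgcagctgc
Acot2 (chr12:83987611-83987910, + strand): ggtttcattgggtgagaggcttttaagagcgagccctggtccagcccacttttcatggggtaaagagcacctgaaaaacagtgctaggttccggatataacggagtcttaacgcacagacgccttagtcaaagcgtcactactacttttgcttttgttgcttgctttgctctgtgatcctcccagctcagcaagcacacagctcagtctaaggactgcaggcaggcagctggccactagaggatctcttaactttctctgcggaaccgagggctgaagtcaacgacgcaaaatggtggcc
Acot3 (chr12:84051894-84052193, + strand): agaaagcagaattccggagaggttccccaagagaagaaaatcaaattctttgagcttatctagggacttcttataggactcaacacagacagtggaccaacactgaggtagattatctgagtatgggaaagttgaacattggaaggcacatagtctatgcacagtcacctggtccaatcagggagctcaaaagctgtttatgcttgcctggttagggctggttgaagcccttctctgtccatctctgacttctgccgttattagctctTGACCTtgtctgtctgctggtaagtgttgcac
Acot4 (chr12:84038129-84038428, + strand): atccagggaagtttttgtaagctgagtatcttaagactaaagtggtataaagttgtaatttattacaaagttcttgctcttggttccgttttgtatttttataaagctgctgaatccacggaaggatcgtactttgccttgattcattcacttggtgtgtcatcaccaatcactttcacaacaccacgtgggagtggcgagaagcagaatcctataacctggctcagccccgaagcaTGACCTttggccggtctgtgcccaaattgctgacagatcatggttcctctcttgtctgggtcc
AGGTCA is the unit that PPARα and other nuclear receptors bind, PPARα on a pair of such units spaced by 1 base (AGGTCANAGGTCA). On either strand, AGGTCA was present in the windows of Acot3, Acot4, Acot5 and Acot12 and not in those of Acot1, Acot2, Acot8, Acnat1 or Acnat2. The Acnat1 window (chr4:49451060-49451359) lies inside the gene of GENCODE M21, whose 5′ end at 49473912 was not searched. AGGTCA was found in 16.3% of 32851 promoter windows of the genome, and in windows of 4900 of 27025 genes. The exact pair was found in 13 windows (0.0396%) and in none of the members' windows. It holds AGGTCA, so the searches overlap. A match describes these letters only. Baat was not matched.

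The genes whose level followed a member most closely from kidney to kidney, after the group means were removed, were ranked by Pearson's r over the 24 kidneys among 14057 genes. The points share libraries and depth, and r is given as a description. Acot1 was followed most closely by Retsat, a retinol saturase (r = 0.84), Ech1, a peroxisomal and mitochondrial enoyl-CoA isomerase (0.80), and Cyp4a12b (0.80), and all 3 had their highest value among cKOf kidneys in replicate 6, the kidney with the highest Acot1. Acot3 was followed by Nr1i2, which encodes the nuclear receptor PXR (0.80), Mgll (0.74) and Zgrf1 (0.73), and Acot2 by Gm46404 (0.71) and Slc13a1 (0.68). All of these genes had their highest value among Ctrlm kidneys in replicate 6, the Ctrlm kidney with the highest Acot3 and Acot2. The nearest genes of Acot4 were Rbak (0.81), Mtss1 (0.79) and Srsf6 (0.77). Among Ctrlm kidneys all 3 were highest in replicate 2, as was Acot4 itself. Those of Acot12 were Ccdc191 (0.74) and Pank1 (0.74), and those of Acnat1 Gm37206 (0.79), Katnal1 (0.78) and Uevld (0.77). For Baat they were BC023105 (0.73), Tgtp1 (0.72) and Akr1c20 (0.72), and all 3 had their highest value among Ctrlf kidneys in replicate 1, the kidney with the highest Baat. Between members, r was 0.61 for Acot1 and Acot2, 0.63 for Acot2 and Acot3, 0.51 for Acot1 and Acot3, and 0.06 for Acnat1 and Acnat2. Ctrlm replicate 6 had the highest Acot1, Acot2 and Acot3 of its group.

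Other genes of the same pathways give the setting of these changes. Of all genes tested, 9.05% were called in males and 0.851% in females. In lists this short, 0 calls in females therefore do not show a difference between the sexes. Of 8 further acyl-CoA thioesterases, 6 were tested, and in males Acot7 (0.71, edgeR adjusted p = 0.00804) and Acot11 (0.50, adjusted p = 0.00726) rose and Acot9 fell (-0.60, adjusted p = 4.4e-04), while 0 of the 6 were called in females. Among 19 genes of peroxisomal β-oxidation and CoA handling, 7 rose and 4 fell in males and 5 rose and 1 fell in females. The thiolase gene Acaa1b rose in both (1.23 and 1.14, edgeR adjusted p = 2.4e-06 and 8.4e-06). Amacr, the racemase of branched-chain and bile acid acyl-CoAs, fell in males (-1.36, edgeR adjusted p = 3.2e-10), as did Crot, the peroxisomal carnitine octanoyltransferase (-1.07, adjusted p = 1.7e-08). Nudt19, a CoA hydrolase of kidney peroxisomes, fell in males (-1.09, edgeR adjusted p = 1.6e-04), while Nudt7, another peroxisomal CoA hydrolase, rose in both sexes (0.46 and 0.38, adjusted p = 0.00161 and 0.01).

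Of 7 genes that supply activated bile acids or glycine and taurine conjugation, the substrates and partners of Baat and the Acnat enzymes, 3 fell in males and 0 rose. These were Csad (-0.95, edgeR adjusted p = 1.2e-08) and Cdo1 (-0.62, adjusted p = 1.3e-04), enzymes of taurine synthesis, and Slc27a2 (-0.50, adjusted p = 1.4e-04), a very long-chain acyl-CoA synthetase. In males 3 of the 12 hepatocyte markers (median log2 fold change -1.69) and 4 of the 8 proximal tubule markers (median -0.25) were called lower as well, and their part in these falls was not tested. Of the proximal tubule markers, 2 had a log2 fold change above 0. In females 0 of the 7 conjugation genes were called, beside 0.851% of all genes. Of 7 genes of mitochondrial fatty acid entry and ketogenesis, 3 rose and 1 fell in males and 1 rose in females. Slc25a20, the carnitine-acylcarnitine carrier, rose in both (0.80 and 0.46, edgeR adjusted p = 3.1e-05 and 0.0124). Among 11 genes of PPARα and its textbook targets, 8 rose and 1 fell in males and 4 rose in females. Cyp4a10 rose in both (1.55 and 1.09, edgeR adjusted p = 5.6e-06 and 5.6e-04), and Ppara itself did not pass (0.54 and -0.08, adjusted p = 0.261 and 0.923). The lists have a median log2 fold change in males of 0.17, 0.08, -0.50, 0.24 and 0.85 in the order given, beside 0.01 over all genes, and of 0.13, 0.20, 0.06, 0.20 and 0.77 in females.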

How the data were processed

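The authors sequenced mRNA of 24 whole kidneys (stranded libraries) and deposited 1 file per kidney with whole counts of reads per gene, without normalization. The submitters' processing notes name cutadapt 1.8, STAR 2.5.3a, HTSeq 0.9.1 and GRCm38. Reads that aligned to more than 1 place were not counted on genes, which lowers counts of close copies. The entry for them made up 26.9% to 34.8% of all counts per kidney, where a read may count once for each alignment. The 5 closing lines of each file were set aside. The labels give 2 times of day for the work, ZT3 and ZT9.

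Counts were analysed with edgeR 4.0.16 in R 4.3.3 (TMM, a minimum of 1 CPM in 1 or more kidneys, 1 model of 4 groups, quasi-likelihood tests). Benjamini-Hochberg adjustment ran over all 16092 genes, for males and females together, for both sex contrasts together and for the interaction alone, with a threshold of 0.05. CPM used TMM library sizes. Single values and ratios (prior count 2) were compared by two-sided exact permutation tests over 924 arrangements. limma 3.58.1, DESeq2 1.42.0 and other settings were alternatives. Sequences came from GENCODE M21 and RefSeq. In a simulation of the male comparison with 15712 genes, 165 of 200 genes given a log2 change of 1 were called, and 3 others.

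The text names the members, genes of 5 lists by general knowledge, and the 3 genes nearest to each called member by r, of which some are not reported here. Members and lists were chosen with earlier results of these data known. Kidneys of a group differed by more than sampling noise (chi-square per degree of freedom 9.83 to 99.2 over 60 pairs), so each was used as a separate sample. Nothing in the labels pairs kidneys across groups.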

Additional observations from a re-analysis of the deposited data

Results flagged for a closer look

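A kidney stood apart from the other 5 of its group, by Dixon's ratio, in 2 of 36 groups of member values. Acot1 was at 97.7 CPM in cKOf replicate 6, and Baat at 23.7 CPM in Ctrlf replicate 1. Chance alone flags about 1 in 20 groups.

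The genotype effect differed between the sexes for 4 members by edgeR's interaction test. Males minus females on the log2 scale, it was 0.87 for Acot2, 1.03 for Acot3, -0.68 for Acot12 and 1.11 for Acnat1. Each of these had an unadjusted p under 0.05 and missed the adjusted threshold without the kidneys over 100 CPM of Alb. Sex and the degree of deletion cannot be told apart here.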

How the results depend on the processing

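With RLE normalization, limma-voom, DESeq2, 2 other filters on low counts, each sex fitted alone, and the hepatocyte level as a covariate, 6 members were called in males and 5 in females, and with each kidney left out in turn also 6 and 5. The interaction calls were 4 in each of these that has both sexes in 1 fit, except 3 with the covariate. Leaving out 1 kidney at a time gave 4 to 6 members called between control males and females and 4 between cKO males and females. Adjusting within each sex gave 3 in females. Without the kidneys over 100 CPM of Alb, an alternative chosen after seeing the data, 3 were called in males and 0 in the interaction, with fewer samples. A prior count of 0.5 changed no call of a ratio. Kidneys with the same number did not deviate together (r of -0.20 to 0.12 over 36 pairs), so they were not paired. A fit with the number as a replicate block gave 6, 5, 3, 5 and 4 members called in males, females, the interaction, control sexes and cKO sexes, and Acnat1 lost its interaction call (1.10, adjusted p = 0.053).

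Signs turned for values near 0 that did not pass: Acot1 between cKO males and females (0.03, with 1 kidney left out -0.05 to 0.18), Acnat1 in females (-0.09 to 0.12), and Acnat2 between control males and females (-0.09 to 0.18, and -0.03 with limma-voom) and in the interaction (-0.05 without the kidneys over 100 CPM of Alb). The causes were not tested. Over 45 results of single members, 1445 of 1476 alternative values kept their sign and their side of the threshold. The depth limits Acot5 and, in males, Baat.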
